A study of Mus musculus with 19 samples.

Results

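Cancer-associated fibroblasts are the matrix-producing stromal cells of a tumour, and 10 genes in common use as their markers were followed here through the messenger RNA of transplanted mouse mammary tumours. The 10 rows were picked by gene symbol from 46983 genes in the count table: Pdgfra, Pdgfrb, Fap, Acta2, Pdpn, Dcn, Lum, Thy1, Postn and Fn1. All 10 were present under those symbols and passed the filter on low counts. The tumours grew from 4T1, a carcinoma line of the mouse mammary gland, in either a knockdown line for lactate dehydrogenase A (LDHA-KD, named 4T1-KD) or its control (4T1-Sc). The hosts were syngeneic BALB/cAnN mice. They received 1000000 cells and, beginning on day 3, 3 doses of antibody to CTLA-4 or of control IgG at 3-day intervals. CTLA-4 is an inhibitory receptor of T cells and lactate dehydrogenase A is the enzyme that turns pyruvate into lactate.

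The libraries comprised 5 LDHA-KD tumours with anti-CTLA-4, 5 LDHA-KD tumours with IgG, 5 anti-CTLA-4-treated control tumours and 4 control tumours with IgG, which were numbered 1, 3, 4 and 5. The labels place the knockdown in the implanted cell line and give no engineered change for the host mice. Whether each line was a single clone, and whether each library was a separate animal, is not given in the sources used here. The p-values therefore measure the spread between these libraries, which may in part be technical. Each library held 31783272 to 43266699 counts in genes. Ldha itself lay between 485 and 584 CPM (counts scaled to a common library total of 1000000) in LDHA-KD tumours with anti-CTLA-4, between 452 and 519 in LDHA-KD tumours with IgG, between 1524 and 2244 in anti-CTLA-4-treated control tumours and between 1283 and 1926 in control tumours with IgG. Replicates 3 and 5 of both anti-CTLA-4 groups stood apart from the other 15 libraries on the second principal component of all tested genes, which held 17.0% of the variance. The fold changes of the 10 genes under anti-CTLA-4, the counts of members and of most gene lists and the tally of spread are accordingly also given without these 4 libraries. Lists of T cell, lymphatic endothelial, skin, adipocyte and skeletal muscle genes are given with all libraries only.

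Fibroblasts make the collagens, proteoglycans and glycoproteins of the extracellular matrix, and in tumours some of them take on a contractile, myofibroblast-like state marked by smooth muscle actin, while others stay non-contractile or secrete cytokines. Signalling by platelet-derived growth factors (PDGF) through receptors alpha and beta drives fibroblast and pericyte growth and migration. Several of the 10 genes are shared with other cells: pericytes and smooth muscle carry Pdgfrb and Acta2, lymphatic endothelium and some macrophages carry Pdpn, mouse T cells carry Thy1, and carcinoma cells can make Fn1. In bulk libraries such as these, fewer cells of a type and less RNA per cell cannot be told apart, and RNA of implanted and host cells is read together.

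The 10 genes did not move as a block. Acta2 fell and Pdgfra rose in LDHA-KD tumours relative to control tumours under both treatments. Pdgfrb, Thy1 and Fap fell under IgG, and Dcn and Lum rose under anti-CTLA-4. Pdpn, Postn and Fn1 passed the test in neither comparison. No member passed the test when anti-CTLA-4 was compared with IgG in tumours of the same line.

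**Figure D1:**
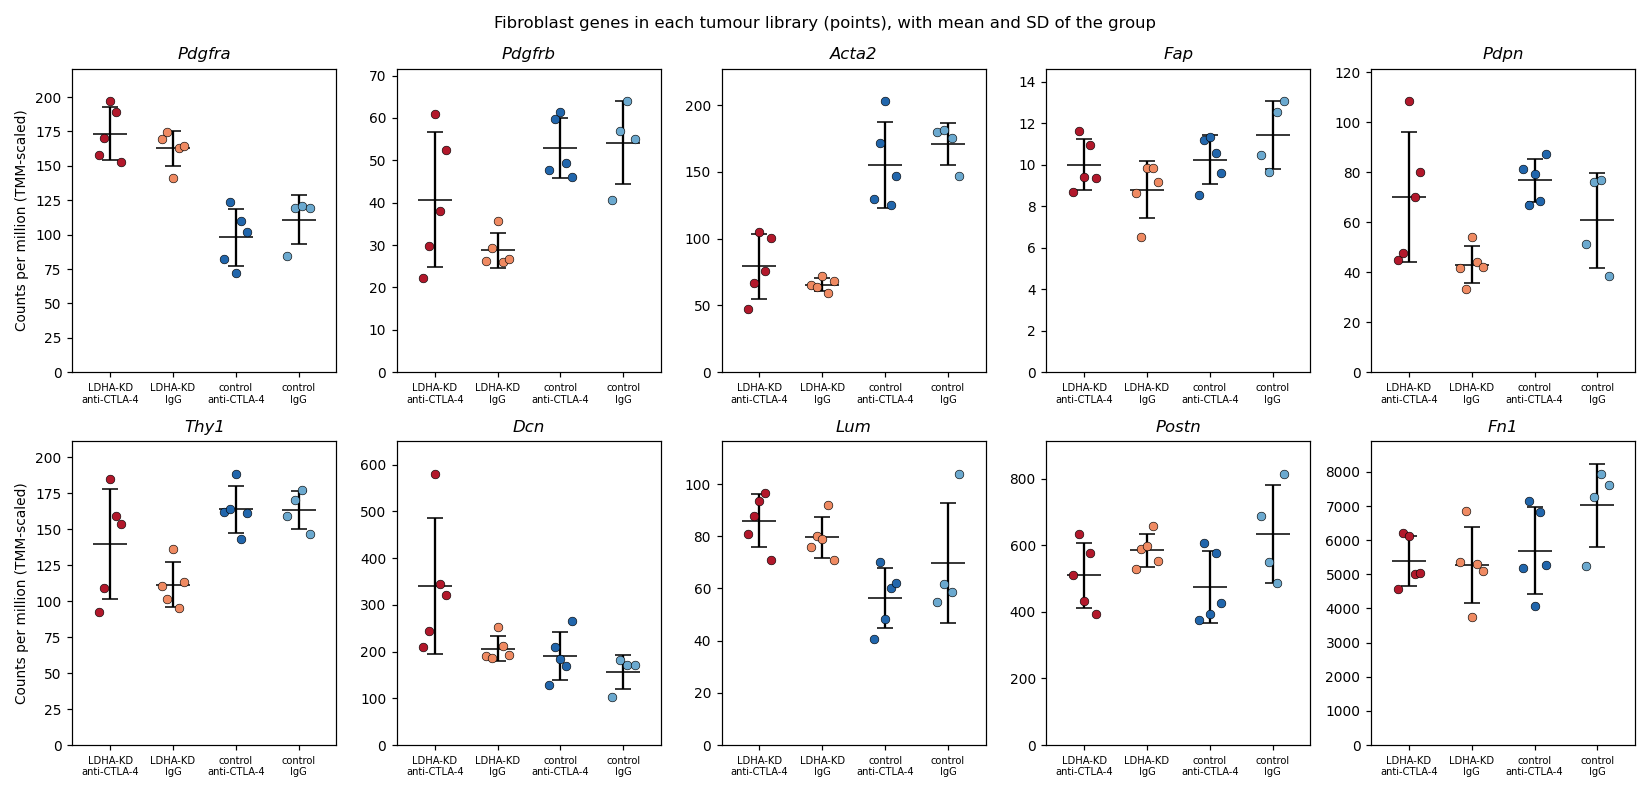
CPM of each of the 10 genes in every library (points; vertical axis linear, 1 panel a gene), with the mean and SD of each group (bars), from LDHA-KD tumours with anti-CTLA-4 on the left to control tumours with IgG on the right. Acta2 sits at 47.2 to 105 CPM in the LDHA-KD libraries and at 125 to 203 CPM in the control libraries, and Pdgfra sits at 142 to 197 CPM in the LDHA-KD libraries and at 72.1 to 124 CPM in the control libraries.

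The promoters of a gene that fell, of a contractile gene that fell with it and of the receptor gene that rose are shown so that the letters before the starts of genes that moved in opposite directions can be read side by side. Each runs from 250 bases before to 50 bases after the start of transcription, 5′ to 3′ on the strand of the gene, as RefSeq gives it on GRCm38.p6. Capitals mark CArG-like matches, the letters CCNNNNNNGG with at least 5 of the 6 inner bases A or T. CArG elements are the known binding sequences of serum response factor in smooth muscle genes. The motif reads the same on both strands, and overlapping matches were counted.
Acta2, chr19:34255324-34255623, minus strand: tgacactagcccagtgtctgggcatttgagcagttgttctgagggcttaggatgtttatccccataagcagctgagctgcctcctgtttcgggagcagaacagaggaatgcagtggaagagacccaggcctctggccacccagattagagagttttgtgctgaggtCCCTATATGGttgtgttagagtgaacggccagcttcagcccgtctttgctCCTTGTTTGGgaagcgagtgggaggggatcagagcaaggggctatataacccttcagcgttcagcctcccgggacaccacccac
Myl9, chr2:156775214-156775513, plus strand: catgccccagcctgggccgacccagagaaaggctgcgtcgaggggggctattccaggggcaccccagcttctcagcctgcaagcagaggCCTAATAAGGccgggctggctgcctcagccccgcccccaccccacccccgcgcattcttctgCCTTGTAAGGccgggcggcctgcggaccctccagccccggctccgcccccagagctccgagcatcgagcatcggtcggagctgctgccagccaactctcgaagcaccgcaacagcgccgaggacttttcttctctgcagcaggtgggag
Pdgfra, chr5:75152001-75152300, plus strand: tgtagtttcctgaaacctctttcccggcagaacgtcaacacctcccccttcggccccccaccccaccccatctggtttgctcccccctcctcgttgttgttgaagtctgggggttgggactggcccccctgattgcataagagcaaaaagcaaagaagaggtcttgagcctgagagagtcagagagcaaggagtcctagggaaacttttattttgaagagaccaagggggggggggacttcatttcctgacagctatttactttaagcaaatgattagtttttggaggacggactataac
The Acta2 window held 2 such matches, CCCTATATGG beginning 84 bases before the RefSeq start and CCTTGTTTGG beginning 34 bases before it. The annotations differ here: GENCODE M21 begins Acta2 217 bases further upstream, so that by its outermost start both matches lie inside the gene. The Myl9 window also held 2, CCTAATAAGG at 161 bases and CCTTGTAAGG at 99 bases before the RefSeq start, and both also precede the GENCODE start. At least 1 match occurred in 9.98% of 32851 RefSeq promoter windows of the same length, and 2 or more in 0.822%. No match was found in the windows of Pdgfra, Pdpn or Postn, the other members with an entry (4 of 10). Of the 6 contractile genes looked up 4 had an entry, and Myl9, the one printed, was the only one with a match. The windows of Cnn1, Tpm1 and Tpm2, which also fell under both treatments, held none. Acta2 and the 6 contractile genes looked up were chosen after their values had been seen, and the matches are a description of these letters only.

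Acta2 encodes smooth muscle alpha-actin, the filament protein that defines myofibroblasts (chr19:34241090-34255590, minus strand). It measured 47.2, 67.0, 105, 76.1 and 101 CPM in LDHA-KD tumours with anti-CTLA-4, against 130.0, 172, 203, 125 and 147 CPM in anti-CTLA-4-treated control tumours. With IgG it measured 65.1, 63.9, 71.8, 59.0 and 68.6 CPM in LDHA-KD tumours, against 179.7, 181, 175 and 147 CPM in control tumours. Every LDHA-KD library lay below every control library, and within the LDHA-KD line the coefficient of variation was 30.4% with anti-CTLA-4 and 7.42% with IgG. The log2 fold change was -0.97 under anti-CTLA-4 (SE 0.17, adjusted p = 0.000193 by the quasi-likelihood test of edgeR with Benjamini-Hochberg adjustment) and -1.38 under IgG (SE 0.18, adjusted p = 9.88e-06). The level was thus 1.96-fold lower in LDHA-KD tumours under anti-CTLA-4 and 2.60-fold lower under IgG. Without the 4 libraries that stood apart the value under anti-CTLA-4 was -1.17 (edgeR adjusted p = 7.95e-05).

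Of all genes tested, 40.0% passed under anti-CTLA-4 (20.2% higher, 19.8% lower) and 34.3% under IgG (16.8% higher, 17.5% lower). Of the 10 members, 4 passed under anti-CTLA-4, 3 of them higher and 1 lower, and 5 passed under IgG, 1 higher and 4 lower. With all libraries the share of 4 in 10 under anti-CTLA-4 was that of all genes, and 5 in 10 under IgG lay above it, with no test of that difference. On leaving out the 4 libraries that stood apart, 5 members passed under anti-CTLA-4, 3 higher and 2 lower, where 25.7% of all genes passed. The groups did not overlap for 3 members under anti-CTLA-4, where 23.2% of all genes were separated in this way, and for 5 members under IgG, where 30.4% were. Among the remaining 15 libraries it was 5 members under anti-CTLA-4, with 38% of all genes separated between groups of 3. The median log2 fold change of the 10 was -0.06 under anti-CTLA-4 and -0.40 under IgG, beside medians of 0.01 and -0.00 over all genes tested, and was -0.12 under anti-CTLA-4 without the 4 libraries.

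**Figure D2:**
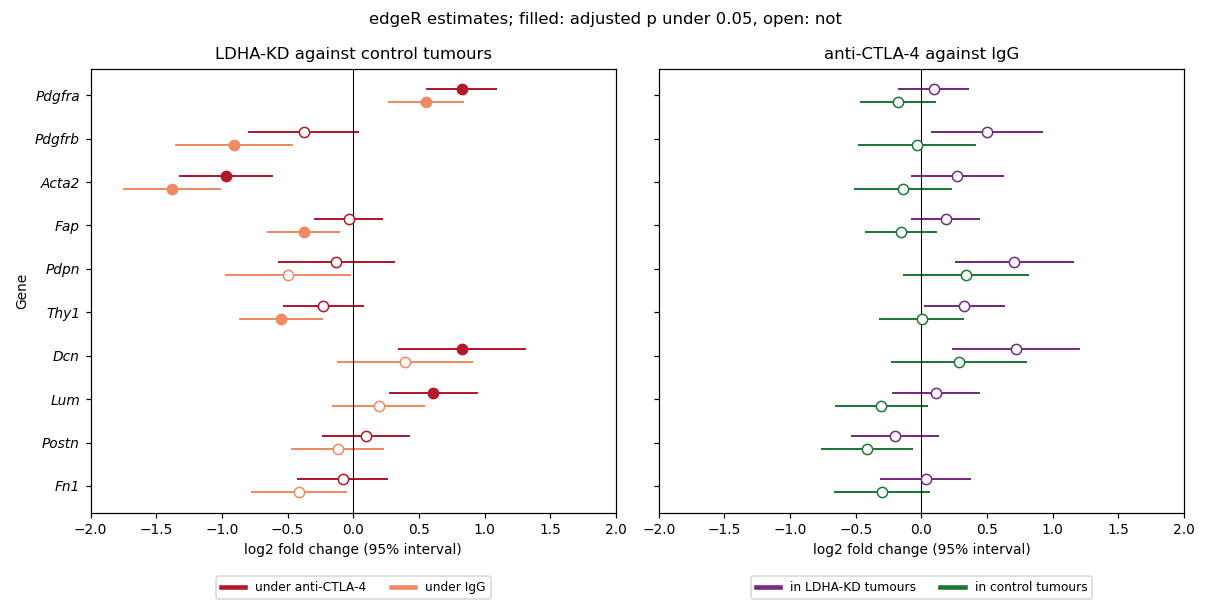
Log2 fold change of each of the 10 genes (horizontal axis) with its 95% interval, on the left for LDHA-KD over control tumours under each treatment and on the right for anti-CTLA-4 over IgG in each line; filled symbols passed an adjusted p of 0.05. Acta2 (-0.97 under anti-CTLA-4, -1.38 under IgG) and Pdgfra (0.82 under anti-CTLA-4, 0.55 under IgG) are filled on the left, and no symbol is filled on the right.

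Pdgfra and Pdgfrb are the receptors through which fibroblasts and mural cells sense PDGF. Pdgfra (chr5:75152292-75198215, plus strand) measured 158, 170.4, 197, 189 and 153 CPM in LDHA-KD tumours with anti-CTLA-4, against 82.4, 124, 72.1, 109.7 and 102 CPM in anti-CTLA-4-treated control tumours. With IgG it measured 169.8, 174, 142, 163 and 165 CPM in LDHA-KD tumours, against 84.2, 119.6, 121 and 119 CPM in control tumours. All 10 LDHA-KD libraries lay above all 9 control libraries. The log2 fold change was 0.82 (SE 0.13, edgeR adjusted p = 6.94e-05) under anti-CTLA-4 and 0.55 (SE 0.14, edgeR adjusted p = 0.00444) under IgG, a level 1.77-fold higher in LDHA-KD tumours under anti-CTLA-4 and 1.47-fold higher under IgG. The value under anti-CTLA-4 was 0.71 (edgeR adjusted p = 0.00277) without the 4 libraries. The annotated antisense gene Gm42802 overlaps Pdgfra, and since the strand setting of the counting is not given in the sources used here, their reads cannot be told apart.

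Pdgfrb (chr18:61045150-61085061, plus strand) went the other way. It measured 26.3, 29.4, 35.7, 25.9 and 26.8 CPM in LDHA-KD tumours with IgG, against 40.7, 56.9, 64.0 and 55.0 CPM in control tumours with IgG. The groups did not overlap, and the level was 1.88-fold lower in LDHA-KD tumours (log2 fold change -0.91, SE 0.21, edgeR adjusted p = 0.00277). With anti-CTLA-4 the LDHA-KD libraries spread over 22.2, 29.8, 61.0, 37.9 and 52.5 CPM and met the control libraries at 47.6, 59.8, 61.3, 49.4 and 46.2 CPM. The high LDHA-KD values were those of replicates 3 and 5, which are among the 4 libraries that stood apart. The difference of -0.38 (SE 0.20, edgeR adjusted p = 0.143) did not pass with all libraries. It was -0.80 and passed (edgeR adjusted p = 0.00546) without the 4 libraries, and -0.57 (edgeR adjusted p = 0.0246) without LDHA-KD replicate 3 alone.

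The receptors were also expressed in counts per kilobase of exon and per unit of depth (written RPKM). The lengths used were those of all annotated exons joined, 10024 bases for Pdgfra and 5478 for Pdgfrb. These need not be the lengths of the transcripts present. On this scale Pdgfra averaged 17.3 and Pdgfrb 7.43 in LDHA-KD tumours with anti-CTLA-4, and 16.2 and 5.26 in LDHA-KD tumours with IgG. In control tumours Pdgfra averaged 9.77 and Pdgfrb 9.65 RPKM with anti-CTLA-4, and 11.1 and 9.88 RPKM with IgG. The ratio of the receptors' RPKM within a library was 1.59 to 3.88 in LDHA-KD tumours with anti-CTLA-4 and 2.16 to 3.53 in LDHA-KD tumours with IgG, against 0.643 to 1.21 in anti-CTLA-4-treated control tumours and 1.03 to 1.18 in control tumours with IgG. The ratio was thus higher in each LDHA-KD library than in every control library. On this scale the control libraries lay on either side of an equal level, replicate 3 with anti-CTLA-4 being the farthest from it at 0.643. Where that equal level falls depends on the lengths used, so the ratio shows only the shift between the lines. The ratio was formed after the values had been seen and carries no test.

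Most ligand genes of these receptors were lower in LDHA-KD tumours. Of the 4 PDGF ligand genes, 3 fell and none rose in LDHA-KD tumours under either treatment, with a median log2 fold change of -1.46 under anti-CTLA-4 and -1.52 under IgG. Pdgfa averaged 41.1 and 33.1 CPM in LDHA-KD tumours with anti-CTLA-4 and with IgG, against 127 and 104 CPM in control tumours with the same antibodies. Pdgfb had the largest change, with a log2 fold change of -1.89 under either treatment (SE 0.14 each), or 3.70-fold lower in LDHA-KD tumours with anti-CTLA-4 and 3.71-fold lower with IgG. Pdgfc also fell, by 1.29 under anti-CTLA-4 and by 1.38 under IgG on the log2 scale. Pdgfd was near 3 CPM in all groups and did not pass (0.16 under anti-CTLA-4, -0.13 under IgG). The ligand counts were the same without the 4 libraries.

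Among the surface markers, Thy1 encodes a glycoprotein anchored in the membrane of fibroblasts and of mouse T cells (chr9:44043384-44048579, plus strand). It measured 111, 102, 137, 95.6 and 113 CPM in LDHA-KD tumours with IgG, against 159, 170.3, 177 and 147 CPM in control tumours with IgG. All LDHA-KD libraries were lower than all control libraries, with a log2 fold change of -0.55 (SE 0.15, edgeR adjusted p = 0.00931). With anti-CTLA-4 it measured 92.3, 109, 185, 159 and 154 CPM in LDHA-KD tumours, against 162, 164, 188, 143 and 162 CPM in control tumours. These groups overlapped, and the difference of -0.23 (SE 0.15, edgeR adjusted p = 0.225) did not pass, nor did that of -0.38 (edgeR adjusted p = 0.105) without the 4 libraries. Transcripts of 8 T cell genes all rose under both treatments, opposite to the fall of Thy1 under IgG. Their summed level was 74.8 to 139 CPM in LDHA-KD tumours with anti-CTLA-4 and 57.7 to 87.2 CPM in LDHA-KD tumours with IgG. It was 28.0 to 54.9 CPM in anti-CTLA-4-treated control tumours and 14.1 to 28.8 CPM in control tumours with IgG. Cd3d, a subunit of the T cell receptor complex, rose by 2.11 on the log2 scale under IgG. The part of T cells in the level of Thy1 was not tested.

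Fap encodes fibroblast activation protein, a surface serine protease of activated fibroblasts (chr2:62500943-62574075, minus strand), and was the lowest of the 10, at 1.55 to 2.02 RPKM on group average. It measured 8.65, 6.51, 9.81, 9.85 and 9.15 CPM in LDHA-KD tumours with IgG, against 10.5, 9.66, 12.5 and 13.1 CPM in control tumours with IgG. These values overlap by a little. The fold change passed narrowly (log2 -0.38, SE 0.13, edgeR adjusted p = 0.0329), and the call was lost on leaving out LDHA-KD replicate 1 (adjusted p = 0.0602) or 2 (0.0888) or control replicate 4 (0.0895) or 5 (0.109) of the IgG groups, by edgeR in each case. With anti-CTLA-4, Fap averaged 10.00 ± 1.22 CPM in LDHA-KD tumours and 10.2 ± 1.17 CPM in control tumours (SD, n = 5 each), a log2 difference of -0.04 with a 95% interval of -0.30 to 0.23. It was 0.042 without the 4 libraries.

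Pdpn encodes podoplanin, a mucin-like glycoprotein that binds the platelet receptor CLEC-2 (chr4:143267431-143299564, minus strand). It measured 44.8, 47.7, 109, 70.3 and 80.0 CPM in LDHA-KD tumours with anti-CTLA-4, against 81.4, 67.1, 79.4, 68.7 and 87.5 CPM in anti-CTLA-4-treated control tumours. With IgG it measured 41.8, 33.5, 54.0, 43.9 and 42.1 CPM in LDHA-KD tumours, against 51.4, 76.0, 77.0 and 38.7 CPM in control tumours. Both pairs of groups overlapped, and neither difference passed: -0.13 (SE 0.21, edgeR adjusted p = 0.659) under anti-CTLA-4 and -0.50 (SE 0.23, edgeR adjusted p = 0.0991) under IgG. The difference under anti-CTLA-4 was -0.42 (edgeR adjusted p = 0.210) without the 4 libraries. Control replicate 5 held the lowest control value with IgG, and without it the difference was -0.66 and passed (edgeR adjusted p = 0.0311).

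Decorin and lumican are small leucine-rich proteoglycans that bind collagen fibrils. Dcn (chr10:97479609-97518143, plus strand) measured 211, 243, 580.0, 345 and 322 CPM in LDHA-KD tumours with anti-CTLA-4, against 128, 210.1, 183, 169 and 267 CPM in anti-CTLA-4-treated control tumours. Replicate 3 of the LDHA-KD tumours stood far above the rest, and the only overlap came from control replicate 5. The level was 1.78-fold higher in LDHA-KD tumours (log2 fold change 0.83, SE 0.23, edgeR adjusted p = 0.00815), and 0.65 on the log2 scale (edgeR adjusted p = 0.0395) without the 4 libraries. With IgG, Dcn measured 189.8, 187, 252, 212 and 192 CPM in LDHA-KD tumours, against 103, 182, 171 and 172 CPM in control tumours. Here the groups did not overlap, yet the difference of 0.40 (SE 0.25, edgeR adjusted p = 0.232) did not pass, the nearest libraries being 187 and 182 CPM.

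Lum lies on the same strand of the chromosome (chr10:97565128-97572703). It measured 80.9, 87.8, 93.3, 96.7 and 71.0 CPM in LDHA-KD tumours with anti-CTLA-4, against 40.8, 70.0, 48.3, 60.3 and 62.1 CPM in anti-CTLA-4-treated control tumours. The groups were separated, by a narrow gap, and the level was 1.53-fold higher in LDHA-KD tumours (log2 fold change 0.61, SE 0.16, edgeR adjusted p = 0.00535). It was 0.63 (edgeR adjusted p = 0.0401) without the 4 libraries. With IgG, Lum measured 75.9, 80.3, 79.1, 91.9 and 70.7 CPM in LDHA-KD tumours, against 54.9, 61.5, 58.5 and 104 CPM in control tumours. The 104 CPM of control replicate 5 exceeded every LDHA-KD library with IgG, and the difference of 0.19 (SE 0.17, edgeR adjusted p = 0.413) did not pass. Without that library it was 0.45 and passed (edgeR adjusted p = 0.0213).

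The ratio of Dcn to Acta2 in RPKM, formed after the values had been seen and given with no test, set the matrix proteoglycan against the contractile filament. It was 1.68, 1.36, 2.07, 1.70 and 1.20 in LDHA-KD tumours with anti-CTLA-4 and 1.05 to 1.35 in LDHA-KD tumours with IgG. In control tumours it was 0.372, 0.460, 0.339, 0.508 and 0.684 with anti-CTLA-4 and 0.217 to 0.438 with IgG. On this scale all LDHA-KD libraries held more Dcn than Acta2, and all control libraries more Acta2 than Dcn. The lengths used were those of all annotated exons joined, 5838 bases for Dcn and 2196 for Acta2. Where the levels appear equal depends on these lengths, so the ratio shows only the shift between the lines.

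Of 7 other small leucine-rich proteoglycan genes tested, none passed as higher in LDHA-KD tumours, though 6 of the 7 had positive log2 differences under anti-CTLA-4. Ogn, which encodes osteoglycin, averaged 6.34 CPM in LDHA-KD tumours with anti-CTLA-4 and 3.59 CPM in anti-CTLA-4-treated control tumours, a log2 difference of 0.81 (edgeR adjusted p = 0.194). Fmod, which encodes fibromodulin, fell by 1.06 on the log2 scale under anti-CTLA-4 and by 1.64 under IgG, and Bgn, which encodes biglycan, fell by 0.86 under IgG. The family median was 0.33 under anti-CTLA-4, with 1 gene lower, and -0.50 under IgG, with 2 genes lower. The median under anti-CTLA-4 was 0.27 without the 4 libraries, again with 1 gene lower. Whether these genes differ from Dcn and Lum was not tested.

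The glycoprotein genes Postn and Fn1 passed the test under neither treatment. Postn encodes periostin, a matricellular protein that binds integrins (chr3:54361109-54391037, plus strand). It measured 511, 632, 432, 577 and 394 CPM in LDHA-KD tumours with anti-CTLA-4, against 374, 607, 395, 577 and 426 CPM in anti-CTLA-4-treated control tumours. With IgG it measured 528, 587, 596, 659 and 551 CPM in LDHA-KD tumours, against 688, 549, 486 and 814 CPM in control tumours. The groups overlapped widely, and the 95% intervals of the log2 difference were -0.24 to 0.43 under anti-CTLA-4 and -0.47 to 0.24 under IgG. That under anti-CTLA-4 was 0.14 (edgeR adjusted p = 0.615) without the 4 libraries.

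Fn1 encodes fibronectin, the integrin-binding glycoprotein of provisional matrix (chr1:71585520-71653200, minus strand), and made up 73.1% to 85.5% of the summed CPM of the 10 genes. It measured 4585, 6208, 6119, 5021 and 5026 CPM in LDHA-KD tumours with anti-CTLA-4, against 5185, 7133, 4059, 6825 and 5279 CPM in anti-CTLA-4-treated control tumours. With IgG it measured 5352, 6858, 3739, 5308 and 5106 CPM in LDHA-KD tumours, against 5239.7, 7278, 7938 and 7629 CPM in control tumours. The log2 difference was -0.08 under anti-CTLA-4 (SE 0.17, edgeR adjusted p = 0.730) and -0.41 under IgG (SE 0.17, edgeR adjusted p = 0.0746). Under anti-CTLA-4 it was -0.28 (edgeR adjusted p = 0.339) without the 4 libraries. The difference under IgG passed without control replicate 1 (-0.53, edgeR adjusted p = 0.0307) or without LDHA-KD replicate 2 (-0.53, edgeR adjusted p = 0.0296), the libraries nearest to the other group. The annotated gene Apol7d overlaps Fn1 on the other strand. Because Fn1 dominates the sum, a summed fibroblast level would describe Fn1: it ran from 5116 to 9281 CPM over all 19 libraries and overlapped in every pair of groups.

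Genes tied to the same pathways were read from lists chosen with earlier results of these data known. The counts of every list, here and elsewhere, stand beside the shares of all genes tested. These were 40.0% under anti-CTLA-4 (19.8% lower) and 34.3% under IgG (17.5% lower). Under anti-CTLA-4 without the 4 libraries the share was 25.7%. No list was tested against these shares. Of 16 myofibroblastic genes, 10 fell and none rose under anti-CTLA-4, with a median of -0.66, and 15 fell and none rose under IgG, with a median of -1.19. Among the 6 that did not pass under anti-CTLA-4, the collagen gene Col12a1 had a difference of 0.07. Tagln, which encodes the actin-binding protein transgelin, fell by 1.25 under anti-CTLA-4 and by 1.59 under IgG on the log2 scale. Cnn1, which encodes calponin, fell by 1.22 under anti-CTLA-4 and by 1.84 under IgG. Igfbp3, which encodes a binding protein of insulin-like growth factors, fell by 1.52 under anti-CTLA-4 and by 1.80 under IgG. Without the 4 libraries 10 of the 16 again fell under anti-CTLA-4 and none rose, with a median of -1.01.

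For the pan-fibroblast genes the libraries mattered more. Of 17 such genes 16 were tested, while Tcf21 had no read in any library. Under IgG 11 fell and 1 rose, with a median of -0.78. Twist1 and Prrx1, transcription factors of mesenchymal cells, fell by 0.77 and by 0.94, and Pdgfrl, which encodes a protein related to the PDGF receptors, rose by 1.32. Under anti-CTLA-4 only 1 fell (Twist1, -0.76) and 2 rose (Pdgfrl, 0.89, and the matrix protease gene Mmp2, 0.96), with a median of -0.10. Leaving out the 4 libraries that stood apart changed this to 7 lower and 1 higher with a median of -0.49, where 25.7% of all genes passed. The summed level of these 17 genes was 4753 to 10967 CPM in LDHA-KD tumours with anti-CTLA-4 and 4947 to 6207 CPM in LDHA-KD tumours with IgG, against 5567 to 9287 CPM in anti-CTLA-4-treated control tumours and 5928 to 9424 CPM in control tumours with IgG.

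Of 12 genes of collagen processing, 6 fell and 1 rose under anti-CTLA-4, and 10 fell and none rose under IgG. Pcolce, an enhancer of procollagen C-proteinase, fell by 1.20 under anti-CTLA-4 and by 1.32 under IgG. Serpinh1, the collagen chaperone, fell by 0.55 under anti-CTLA-4 and by 0.68 under IgG. Without the 4 libraries 9 of the 12 fell and none rose under anti-CTLA-4. A list of 15 matricellular and elastic fibre genes shared Thbs2, Tnc and Ccn2 with the myofibroblastic list. Of the 15, 5 fell and 1 rose under anti-CTLA-4 and 7 fell under IgG. Among them Tnc, which encodes tenascin-C, fell by 0.72 under anti-CTLA-4 and by 1.53 under IgG, and Ccn2, a connective tissue growth factor gene listed in the table as Ctgf, fell by 1.33 under anti-CTLA-4 and by 1.84 under IgG. Spp1, which encodes osteopontin and is also made by macrophages and tumour cells, fell by 1.59 under anti-CTLA-4. Among the 15, 5 fell and none rose under anti-CTLA-4 on leaving out the 4 libraries.

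The inflammatory fibroblast genes showed no common direction. Of all genes tested, 40.0% passed under anti-CTLA-4 and 34.3% under IgG. Of the 18 inflammatory genes, 1 rose and 3 fell under either treatment, with medians of 0.13 under anti-CTLA-4 and -0.17 under IgG. Has2, a hyaluronan synthase gene, fell by 1.34 under anti-CTLA-4 and by 1.56 under IgG. Lif, a cytokine gene, fell by 0.56 under anti-CTLA-4 and by 0.80 under IgG. Dpp4, which encodes a surface peptidase of fibroblast progenitors and of T cells, rose by 1.17 under anti-CTLA-4 and by 1.05 under IgG. With the 4 libraries left out 2 rose and 2 fell under anti-CTLA-4. Of 9 tested receptors of fibronectin, periostin and podoplanin, 4 fell and 1 rose under anti-CTLA-4, and 5 fell and 1 rose under IgG. Itga5, the alpha subunit of the main fibronectin integrin, fell by 1.08 under IgG, Cd44 fell by 0.64 under anti-CTLA-4 and by 0.71 under IgG, and Itga4, an integrin subunit common on leukocytes, rose by 1.44 under anti-CTLA-4 and by 1.46 under IgG. The receptor counts under anti-CTLA-4 were the same without the 4 libraries.

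**Figure D3:**
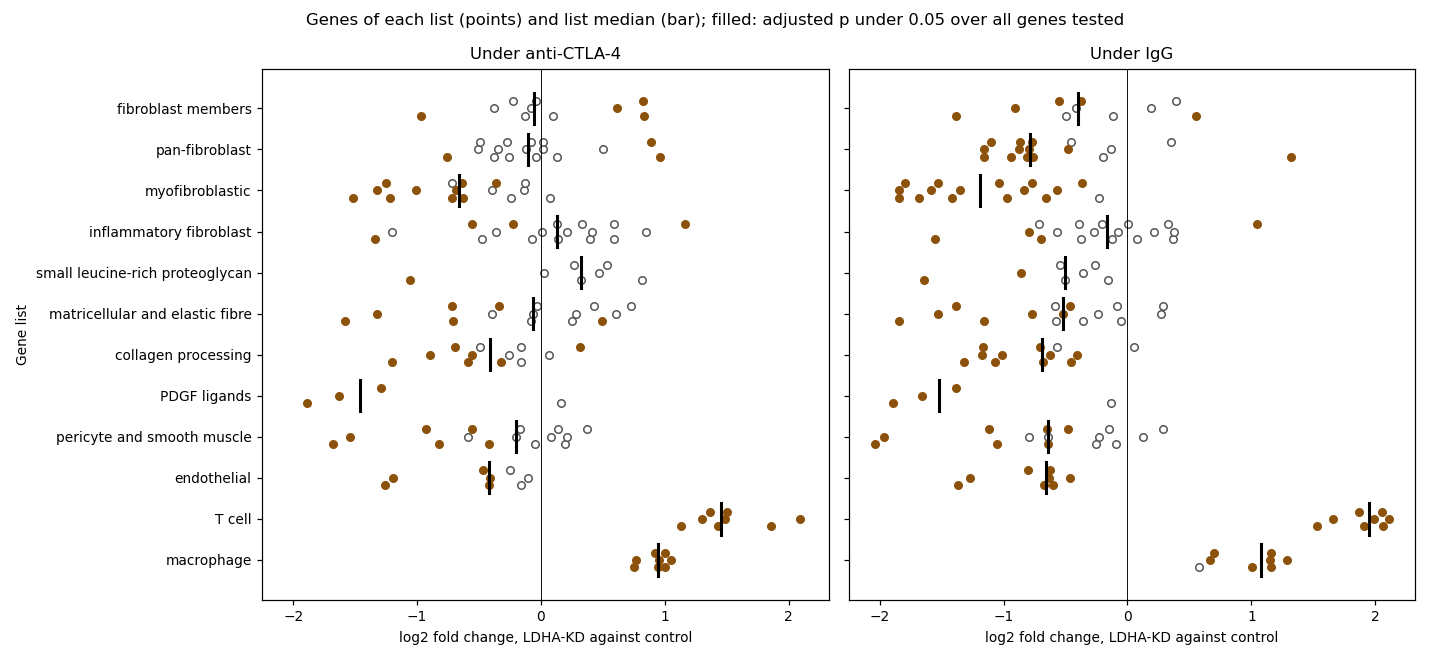
Log2 fold change (horizontal axis) of LDHA-KD over control tumours for each tested gene of each list (points) with the list's median (bar), under anti-CTLA-4 on the left and IgG on the right. The myofibroblastic genes have medians of -0.66 under anti-CTLA-4 and -1.19 under IgG and the T cell genes medians of 1.46 under anti-CTLA-4 and 1.95 under IgG, while the 10 fibroblast genes spread to either side of 0.

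Genes of other cell types were counted in the same comparisons, where 40.0% of all genes passed under anti-CTLA-4 and 34.3% under IgG. Those passing as lower were 19.8% under anti-CTLA-4 and 17.5% under IgG. Of 15 pericyte and smooth muscle genes, which share Acta2 and Pdgfrb with fibroblasts, 6 fell under anti-CTLA-4 and 7 under IgG and none rose, with medians of -0.20 under anti-CTLA-4 and -0.64 under IgG. Mcam, an adhesion molecule of mural and endothelial cells, fell by 0.83 under anti-CTLA-4 and fell by 1.05 under IgG. Cspg4, the pericyte proteoglycan, fell by 1.68 under anti-CTLA-4 and fell by 2.04 under IgG. Actg2, a smooth muscle actin, fell by 1.54 under anti-CTLA-4 and fell by 1.97 under IgG. Markers in common use did not pass: Rgs5, a pericyte regulator of G protein signalling, differed by 0.21 under anti-CTLA-4 and by -0.09 under IgG, the receptor gene Notch3 by 0.38 under anti-CTLA-4 and by 0.13 under IgG, and the smooth muscle myosin gene Myh11 by 0.19 under anti-CTLA-4 and by -0.15 under IgG. Their summed level was 289 to 426 CPM in LDHA-KD tumours with anti-CTLA-4 and 300.0 to 321 CPM in LDHA-KD tumours with IgG, against 375 to 443 CPM in anti-CTLA-4-treated control tumours and 363 to 473 CPM in control tumours with IgG. Of 8 endothelial genes 5 fell under anti-CTLA-4 and all 8 under IgG, and Emcn, an endothelial sialomucin gene, fell by 1.19 under anti-CTLA-4 and by 1.27 under IgG. The endothelial sum was 254 to 371 CPM in LDHA-KD tumours with anti-CTLA-4 and 213 to 277 CPM in LDHA-KD tumours with IgG, against 359 to 402 CPM in anti-CTLA-4-treated control tumours and 338 to 448 CPM in control tumours with IgG. The counts under anti-CTLA-4 were again 6 of 15 and 5 of 8 without the 4 libraries. No gene of either list was at 0 in a whole group, and the part of these cells in the levels of Acta2 and Pdgfrb was not tested.

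Macrophage genes rose, 8 of 8 under anti-CTLA-4 and 7 of 8 under IgG, with medians of 0.95 under anti-CTLA-4 and 1.08 under IgG. With the 4 libraries left out, 6 of 8 rose under anti-CTLA-4. Their sum was 4198 to 5012 CPM in LDHA-KD tumours with anti-CTLA-4 and 4604 to 4834 CPM in LDHA-KD tumours with IgG, against 2049 to 2686 CPM in anti-CTLA-4-treated control tumours and 1643 to 2826 CPM in control tumours with IgG. Of 10 epithelial genes that mark the implanted cells, 7 fell and 1 rose under anti-CTLA-4 and 5 fell and 1 rose under IgG, and 5 fell and 1 rose under anti-CTLA-4 without the 4 libraries. The epithelial sum was 2235 to 3480 CPM in LDHA-KD tumours with anti-CTLA-4 and 3239 to 3504 CPM in LDHA-KD tumours with IgG. In control tumours it was 4195 to 5153 CPM with anti-CTLA-4 and 4296 to 5484 CPM with IgG. The keratin genes Krt8 and Krt18 were its largest parts, and single genes diverged. With IgG, Cldn4 averaged 32.5 CPM in LDHA-KD tumours against 226 CPM in control tumours. Cldn7 averaged 24.2 against 9.31 CPM and Cdh1 391 against 450 CPM. The sum does not give a number of implanted cells. Lymphatic endothelial genes, which could carry Pdpn, summed to 8.25 to 18.2 CPM in LDHA-KD tumours with anti-CTLA-4 and 8.52 to 16.4 CPM in LDHA-KD tumours with IgG, against 10.1 to 19.9 CPM in anti-CTLA-4-treated control tumours and 9.08 to 20.3 CPM in control tumours with IgG, with 1 of 5 lower under anti-CTLA-4 and 2 of 5 under IgG. CPM are shares of a total. How far these shifts in genes of other cell types set the shares of the fibroblast genes was not tested.

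The order of the 4 group means had few clear steps. For Acta2 it ran from control with IgG (171 ± 16.0 CPM, SD, n = 4) and control with anti-CTLA-4 (155 ± 32.3, n = 5) down to LDHA-KD with anti-CTLA-4 (79.3 ± 24.1, n = 5) and LDHA-KD with IgG (65.7 ± 4.87, n = 5), and only the middle step separated all libraries. For Pdgfra it ran from LDHA-KD with anti-CTLA-4 (173 ± 19.2 CPM, SD, n = 5) and LDHA-KD with IgG (163 ± 12.6, n = 5) down to control with IgG (111 ± 17.9, n = 4) and control with anti-CTLA-4 (98.0 ± 20.8, n = 5), again with a single clear step in the middle. For the other 8 genes every neighbouring pair of groups in the order overlapped. By gene, the group means in RPKM were highest for Fn1 (451 to 601) and lowest for Fap (1.55 to 2.02), with the other 8 between 5.26 and 77.8.

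Anti-CTLA-4 was compared with IgG within each line to ask whether the blockade altered the fibroblast genes. In LDHA-KD tumours 9 of the 10 were higher with anti-CTLA-4 and 1 was lower, with a median log2 difference of 0.23, and none passed the test. The largest differences were those of Dcn (0.72, SE 0.23, edgeR adjusted p = 0.312) and Pdpn (0.71, SE 0.22, edgeR adjusted p = 0.308), followed by Pdgfrb (0.50, SE 0.20, edgeR adjusted p = 0.361) and Thy1 (0.33, SE 0.15, edgeR adjusted p = 0.393). Of all genes 0% passed by edgeR, while 1987 had an unadjusted p under 0.05. DESeq2 called 47 genes and limma voom called 0, none of them a member. Without the 4 libraries 8 of the 10 were higher and 2 lower, with a median of 0.10. The differences of Dcn and Pdpn were then 0.37 and 0.33, that of Pdgfrb was 0.06, and none passed.

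In control tumours 3 of the 10 were higher and 7 lower with anti-CTLA-4, with a median of -0.15. Without the 4 libraries 2 were higher and 8 lower, with a median of -0.11. With all libraries Postn had the largest difference (-0.41, SE 0.17, edgeR adjusted p = 0.601), followed by Pdpn (0.34), Lum (-0.31) and Fn1 (-0.30). Here too 0% of all genes passed by edgeR, with 1346 at an unadjusted p under 0.05, and DESeq2 called 12 genes and limma voom 0, again with no member among them. Groups were separated for no member in either line, where 1.38% of all genes in LDHA-KD tumours and 1.27% in control tumours were separated. The myofibroblastic list was likewise without a call, with medians of 0.31 in LDHA-KD tumours and -0.19 in control tumours.

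The difference between these treatment effects, LDHA-KD minus control, was positive for all 10 genes, from 0.22 for Postn to 0.53 for Pdgfrb on the log2 scale, with a median of 0.36. None passed the interaction test (edgeR adjusted p = 0.9998 for each), and 0% of all genes did, with 415 at an unadjusted p under 0.05 and 0 called by DESeq2 or limma voom. Over all genes 50.8% of the interaction estimates were positive, with a median of 0.00. Without the 4 libraries the estimates of the 10 members were again all positive, with a median of 0.19. The 10 signs are not independent, since the genes share 19 libraries and rise and fall together in some of them. A fibroblast gene that passed under IgG and not under anti-CTLA-4, or the reverse, is therefore not shown to differ between treatments.

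Within groups, single libraries shifted many of the genes at once. Replicate 3 of the LDHA-KD tumours with anti-CTLA-4 was the highest of its group for 6 of the 10 genes and the highest of all 19 libraries for 3, and it exceeded its group's mean by 0.34 on the log2 scale on average. Replicate 1 of the same group was the lowest of its group for 7, and lay 0.38 below the mean. The coefficient of variation was 42.6% for Dcn, 39.3% for Pdgfrb and 37.1% for Pdpn in LDHA-KD tumours with anti-CTLA-4, against 13.2%, 14.3% and 17.0% in LDHA-KD tumours with IgG. It was larger with anti-CTLA-4 for 8 of the 10 in the LDHA-KD line, where 73.9% of all tested genes also had the larger value (7 of the 10 and 59.8% without the 4 libraries), and for 5 of the 10 in the control line, where 41.7% did (4 of the 10 and 41.0% without them). In the control tumours with IgG, replicate 1 was the lowest of its group for 5 of the 10.

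**Figure D4:**
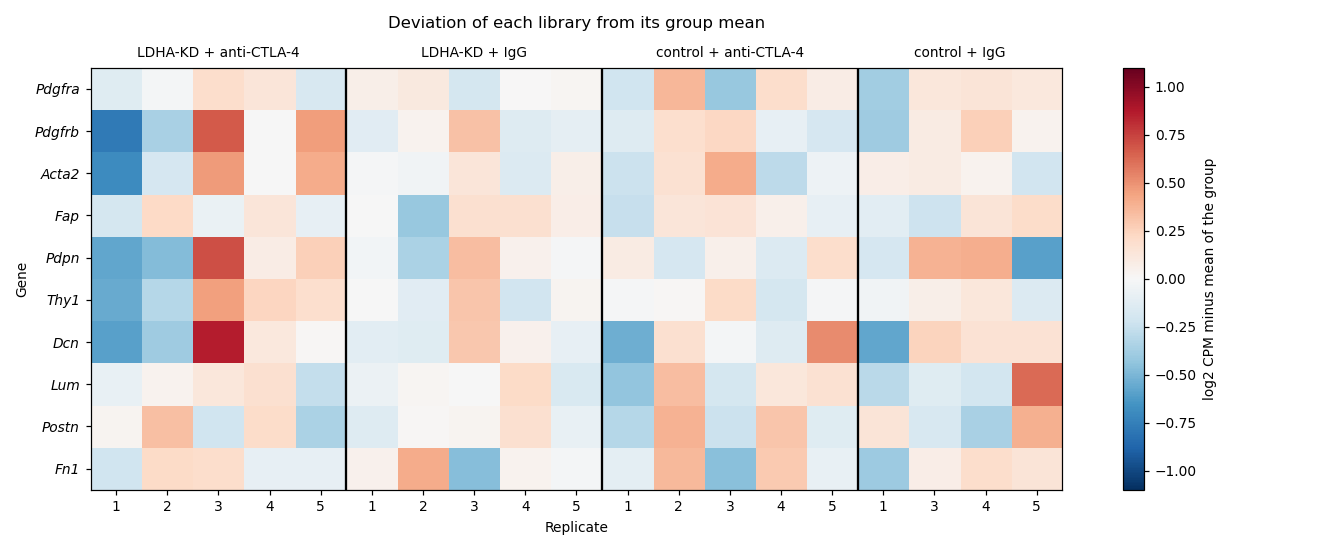
Deviation of log2 CPM from the group mean for each of the 10 genes (rows) in each of the 19 libraries (columns, grouped from LDHA-KD with anti-CTLA-4 to control with IgG). Replicate 3 of the LDHA-KD tumours with anti-CTLA-4 lies above its group's mean for 8 of the 10 genes, and replicate 1 of that group lies on average 0.38 below the mean.

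The genes outside the list that followed these library shifts most closely were found by correlating each gene's log2 CPM with the mean of the 10, both as deviations from the group mean, over 19 libraries and 12429 genes. The 6 closest were Lama4 (Pearson r 0.97, Spearman rho 0.89), Bicc1 (0.96, 0.91), Armcx4 (0.95, 0.88), Grb10 (0.94, 0.84), Prex2 (0.94, 0.84) and Gxylt2 (0.93, 0.85). Lama4 encodes a laminin alpha chain of vessel and stromal basement membranes. Without replicates 1 and 3 of the LDHA-KD tumours with anti-CTLA-4, the libraries farthest from the median, r was 0.94 for Lama4, 0.92 for Bicc1 and Armcx4, 0.87 for Grb10, 0.89 for Prex2 and 0.86 for Gxylt2. The points share library composition and depth, and the genes were chosen for their likeness, so no p is given.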

How the data were processed

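Poly(A)-selected RNA of whole tumours was sequenced as stranded paired-end libraries, per the labels' protocols. The authors deposited a table of whole-number counts per gene, with no normalization. HTSeq 0.5.3, Picard 1.124 and the build mm10 are named in the submitters' processing notes; the aligner, the strand mode of counting and the gene annotation are not given in the sources used here. The 5 summary lines of the counter, 26.2% to 28.7% of the records, were kept out of library sizes.

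Libraries were grouped by the labels. All 19 entered 1 model of 4 groups in edgeR 4.0.16 (R 4.3.3): low counts were filtered by group, leaving 16763 genes, totals were scaled by TMM, and 5 contrasts were tested by the quasi-likelihood method with Benjamini-Hochberg adjustment over all genes tested and a threshold of 0.05. CPM use the same totals, and RPKM divide them by the joined length of all annotated exons of a gene in GENCODE M21 (GRCm38). A count of 3 corresponds to 0.0693 to 0.0944 CPM, which covers counting error only. The test was checked on simulated counts. By their counts no 2 libraries were copies of each other. The mean chi-square per gene between 2 libraries was smallest, at 5.21, for LDHA-KD replicates 1 and 5 with IgG. Next, at 8.81, came control replicate 2 with anti-CTLA-4 and control replicate 3 with IgG, then control replicates 3 and 4 with IgG at 14.1. Whether the closest pairs came from separate tumours was not tested. Alternatives were DESeq2 1.42.0, limma 3.58.1 voom, other scalings and filters, a replicate block, pairwise fits and left-out libraries.

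The members and the gene lists were chosen with earlier results of these data known. The text names all 10 members, up to 3 called genes of a list with the smallest p, and the 6 genes of most like pattern (mean log2 CPM of at least 1). Other genes were named outside this rule, with their values known. Among these were Myl9, Tpm1, Tpm2, Col12a1, Ogn, Rgs5, Notch3, Myh11, Cldn4, Cldn7 and Cdh1. Ccn1 and Ccn2 were matched by gene ID. Skin, adipocyte and skeletal muscle lists were also counted: 1 of 4, 1 of 6 and 1 of 6 genes fell under anti-CTLA-4 and 1 of 4, 0 of 6 and 1 of 6 under IgG, with none higher.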

Additional observations from a re-analysis of the deposited data

Results flagged for a closer look

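Of the 40 sets of values formed by 10 genes in 4 groups, 3 held a library far from the others of its group by Dixon's criterion, which chance meets in about 1 of 20 sets, or 2 of 40. All 3 lay in the control tumours with IgG, the group of 4 libraries. Pdgfra was 84.2 CPM in replicate 1, with the nearest library at 119 CPM. Dcn was 103 CPM in the same library, with the nearest at 171 CPM. Lum was 104 CPM in replicate 5, with the nearest at 61.5 CPM, and the difference of Lum between LDHA-KD and control tumours with IgG passed the test only without that library (edgeR log2 fold change 0.45, adjusted p = 0.0213).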

How the results depend on the processing

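Across 27 alternatives the calls of Pdgfra and Acta2 under both treatments, of Pdgfrb and Thy1 under IgG and of Dcn and Lum under anti-CTLA-4 kept their direction and passed each time. Of 1340 values of single members, 1310 kept direction and call, 16 changed sign (none had passed), 8 came to pass and 6 (all Fap under IgG) no longer passed. Besides the left-out libraries given above, Fap lost its call with no filter (-0.37, adjusted p = 0.0596) and in the pairwise fit (-0.38, adjusted p = 0.0550), by edgeR. The cause was not tested.

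Same-numbered libraries correlated above 0.1 in 12 of 27 pairs (-0.29 to 0.40) and matched best in 8. The 4 libraries that stood apart were replicates 3 and 5 of both anti-CTLA-4 groups. No label gives a number as a pair or batch, and with 4 or 5 libraries a group this check cannot settle it. With the replicate block 7144 genes passed under anti-CTLA-4 and 5941 under IgG, 5 and 6 of them members; Pdgfrb under anti-CTLA-4 (-0.43, adjusted p = 0.0444) and Fn1 under IgG (-0.50, adjusted p = 0.0148) came to pass by edgeR. DESeq2 called 47 genes (40 higher) for anti-CTLA-4 over IgG in LDHA-KD tumours and 12 (11 higher) in control tumours, where edgeR called 0. Without the 4 libraries that stood apart 4308 genes passed under anti-CTLA-4, where 6711 passed with all.

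Leaving out 1 library at a time gave 5813 to 7182 genes and 4 to 5 members under anti-CTLA-4, 4710 to 6023 genes and 4 to 6 members under IgG, 0 to 1 genes for the treatment in LDHA-KD tumours (1 without LDHA-KD anti-CTLA-4 replicate 1), and 0 in control tumours and for the interaction. Signs changed in differences near 0, over these ranges with 1 library left out: under anti-CTLA-4, Fap -0.095 to 0.011 and Fn1 -0.18 to 0.015; under IgG, Postn -0.23 to 0.025; with treatment in LDHA-KD tumours, Fn1 -0.069 to 0.14; with treatment in control tumours, Pdgfrb -0.16 to 0.057 and Thy1 -0.051 to 0.049. Without the 4 libraries Fap under anti-CTLA-4 was 0.042, Acta2 with treatment in LDHA-KD tumours -0.049 and Thy1 with treatment in control tumours -0.063, and the pairwise fit gave -0.00077 for the last. The counts of the gene lists, of separated members and of members with the larger spread without the 4 libraries were chosen after seeing the data. Groups of 4 and 5 libraries limit the precision of all values.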
